A study of Mus musculus with 12 samples.

Results

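The insulin-like growth factor (IGF) system was described here by 10 genes: the ligands Igf1 and Igf2, the receptors Igf1r and Igf2r, and the binding proteins Igfbp2, Igfbp3, Igfbp4, Igfbp5, Igfbp6 and Igfbp7. The members were taken by gene name and are represented by 16 probes on 25 of the 43020 non-control spots of the array. The family was selected on the Igfbp2 signal, which was higher in MRL/lpr mice, so the Igfbp2 values are given as a description, without a test. After spots that were marked or close to background were removed, 9 of the 10 members remained among 17302 genes. Igfbp7, an atypical binding protein with low affinity for IGFs, did not pass that filter: its probe was well above background in 1 of the 12 mice, a Fn14ko mouse.

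Cortex RNA was profiled from 12 adult female mice, 4 in each of 3 groups. MRL/lpr mice carry the lpr mutation of Fas and develop a lupus-like disease. Fn14ko mice carry the same lpr mutation and lack Fn14 (Tnfrsf12a), the receptor of the cytokine TWEAK, and were bred with MRL/lpr as littermates. MRL/+ mice (labelled MRL/MpJ) share the background without lpr, and came from another supplier, so that source and genotype cannot be told apart in any comparison with MRL/+. All mice were of closely matched age and were killed in diestrus, and no group was treated. Each of the 6 arrays carried 2 mice of the same group, 1 in Cy3 and 1 in Cy5. Every group was hybridised on a separate slide, and slide and group therefore cannot be told apart either.

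IGF1 and IGF2 signal mainly through the tyrosine kinase receptor IGF1R, while IGF2R binds IGF2 and carries it to lysosomes. In tissue and blood the ligands are held by binding proteins, which can withhold a ligand from its receptor, prolong its life or present it to cells. In brain, Igf2 is known from the choroid plexus and meninges, Igfbp2 from astrocytes and the choroid plexus, and Igf1 from some neurons and microglia.

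Signals are given as multiples of the median retained spot of the same mouse, and a level of one gene is not set against that of another, because probes differ in affinity. As a check on the labels, Tnfrsf12a read 0.604 to 0.777 in Fn14ko mice, below its 0.943 to 1.28 in MRL/+ and 1.38 to 1.90 in MRL/lpr. By the scanner software's mark, fewer spots were well above background in the Cy5 samples of MRL/+, 35.0% and 21.2%, than in any other sample, where the share was 56.6% or more. Yet only 15 and 9 of their spots read under 2 times the local background, against 8465 to 14724 in each other sample, so that the filter on dim spots took almost none on account of these samples. The differences between MRL/lpr and MRL/+ are therefore also given without these 2 mice. Correlations of log2 signal between mice of a group were 0.913 to 0.988. The labels give the mice as separate samples, and the number of arrays limits the precision: the median standard error (SE) of a log2 fold change between MRL/lpr and MRL/+ was 0.25.

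The probes that carry the 4 binding proteins described most closely below are shown to make clear which transcript region was read. Coordinates are those of the mm9 build in the array files, and each probe is 60 bases long. The 1st Igfbp2 probe spans the end of the coding sequence, with the stop codon in capitals, and is shown whole. The others are shown by their first 30 bases, 5′ to 3′, with the interval of the whole probe, and the array files do not state which part of the transcript they lie in.

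Igfbp2, probe A_55_P2056729, chr1:72898677-72898736, plus strand: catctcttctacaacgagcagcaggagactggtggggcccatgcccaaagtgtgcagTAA
Igfbp2, probe A_66_P135391, chr1:72898813-72898872, plus strand: aggagttcccagttttgacacatgtattta
Igfbp5, probe A_52_P281702, chr1:72904829-72904888, minus strand: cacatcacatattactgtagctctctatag
Igfbp3, probe A_52_P253179, chr11:7106594-7106653, minus strand: gcagttttccaaaaacacagatttcttttc
Igfbp6, probe A_66_P139546, chr15:101979852-101979911, plus strand: ctgtcacccttgggcctttacacagctagt

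The probes of Igfbp2 and Igfbp5 face each other on chromosome 1, on opposite strands with 5956 bases between them. These neighbouring genes did not share a direction: the mean signal of Igfbp2 was higher and that of Igfbp5 lower in MRL/lpr than in MRL/+.

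The first question was how the family differed in MRL/lpr against MRL/+, the comparison in which Igfbp2 was chosen. Of the 8 other measured members, Igfbp6 was higher and Igfbp3 and Igfbp5 were lower in MRL/lpr (limma, adjusted over all genes, threshold 0.05). Igf1, Igf2, Igf1r, Igf2r and Igfbp4 did not pass. The 3 calls among 8 members stand beside 14.4% of all genes called in this comparison, 6.03% higher and 8.37% lower. The split of those calls moved with scaling: 1044 genes were higher and 1448 lower as processed here, and 708 and 2260 when each sample was divided by its 75th percentile. The median log2 fold change of the 8 members was -0.31, against -0.10 over all genes. The calls changed with the mice used: without the 2 MRL/+ Cy5 mice, and also without MRL/+ replicate 4 alone, no member passed, and without the 1st MRL/lpr array only Igfbp6 did. With the Cy3 mice of all groups alone, all 3 passed, and Igf1 passed with them. Calls over all genes fell in each of these fits. They were 337 higher and 444 lower without MRL/+ replicate 4, and 585 and 483 without the 1st MRL/lpr array. The share called was 5.03% without the 2 MRL/+ Cy5 mice and 7.84% with the Cy3 mice alone. In bulk cortex, a difference in the number of cells of a type and in RNA per cell cannot be told apart.

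**Figure D1:**
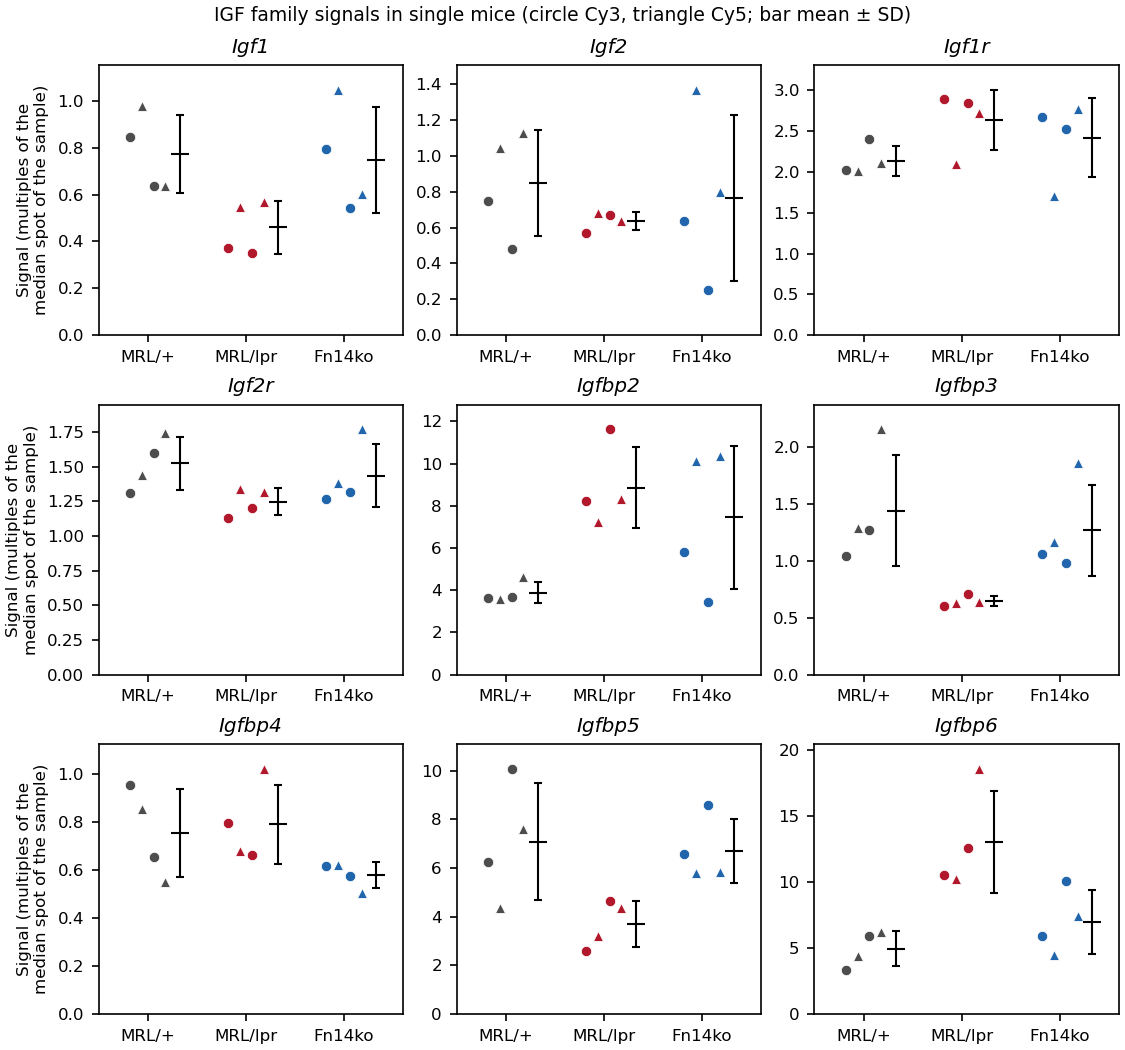
Signal of the 9 measured members in each mouse, as multiples of the median retained spot of that mouse, on linear axes from 0. Circles are Cy3 and triangles Cy5 samples, and the black bar is the mean ± SD of 4 mice. Igfbp3 of the MRL/lpr mice lies at 0.602 to 0.707, below all other mice, and Igfbp6 of MRL/lpr at 10.3 to 18.6, above all other mice.

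Igfbp2, the binding protein that led to this choice of genes, read 8.25, 7.25, 11.6 and 8.32 in MRL/lpr replicates 1 to 4. In MRL/+ it read 3.65, 3.59, 3.70 and 4.62. Every MRL/lpr mouse was above every MRL/+ mouse, and the means were 8.87 ± 1.91 (SD, n = 4) and 3.89 ± 0.486, a ratio of 2.28 and a log2 fold change of 1.17. Both dyes gave the same direction, with log2 differences of 1.41 between the Cy3 mice and 0.93 between the Cy5 mice. Without the MRL/+ Cy5 mice the log2 fold change was 1.03. Taken from the scanner software's own processed signal, the log2 fold change was only 0.40.

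Both probes of Igfbp2 read higher in MRL/lpr than in MRL/+ in every mouse. The coding probe read 7.83, 4.49, 9.97 and 5.13 in MRL/lpr, and 3.21, 1.89, 3.18 and 1.63 in MRL/+. In each of these groups, its Cy5 mice (replicates 2 and 4) read lower than its Cy3 mice. The other probe read 8.68, 10.02, 13.3 and 11.5 in MRL/lpr, and 4.10, 5.29, 4.22 and 7.60 in MRL/+. The log2 fold changes were 1.46 at the coding probe and 1.06 at the other.

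In Fn14ko, Igfbp2 read 5.83, 10.1, 3.47 and 10.4, a wide spread (7.45 ± 3.38) that overlapped both other groups. Its Cy5 mice were at 10.1 and 10.4 and its Cy3 mice at 5.83 and 3.47. Fn14ko against MRL/+ was not tested either, because the MRL/+ values also entered the choice of the family. The log2 fold change was 0.81. Within the Cy3 mice the difference was 0.29 and within the Cy5 mice 1.33, and without the MRL/+ Cy5 mice it was 0.67. Taken from the processed signal it was only 0.074, and without the filter on dim spots it was 1.54. MRL/lpr against Fn14ko had opposite signs in the dyes, 1.12 in Cy3 and -0.40 in Cy5, around a fitted log2 fold change of 0.36. At the single probes, Fn14ko against MRL/+ gave 1.28 at the coding probe and 0.60 at the other.

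**Figure D2:**
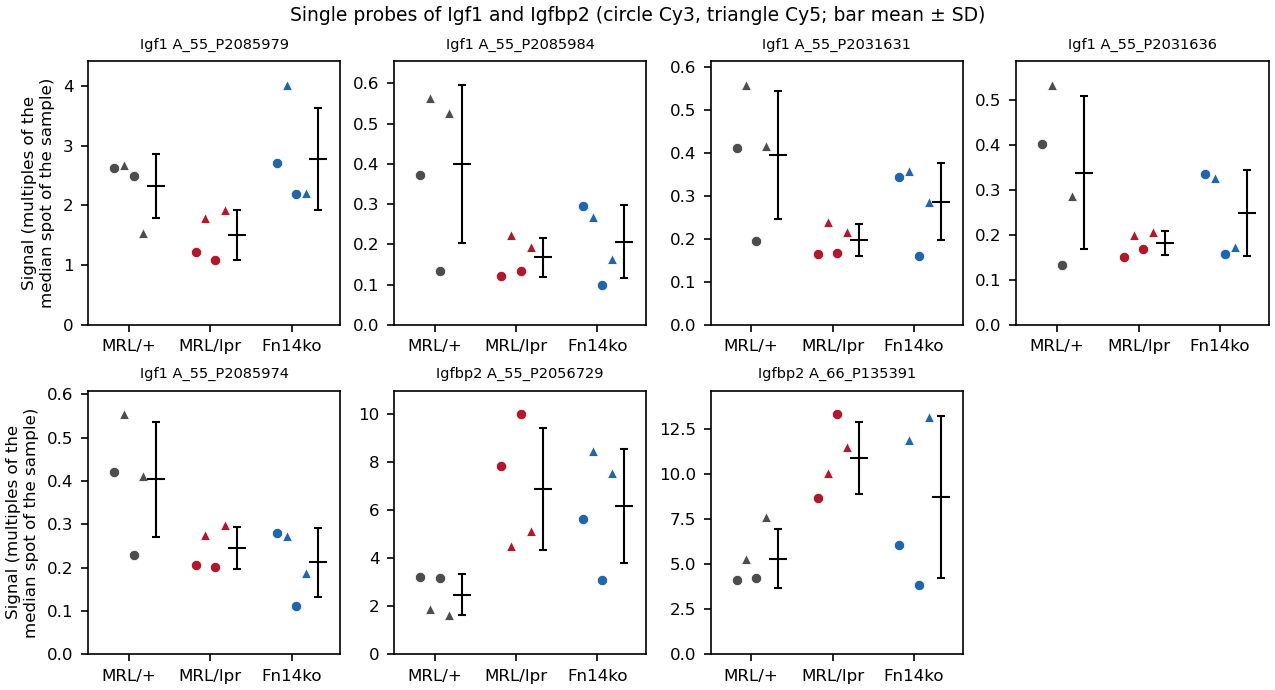
Signal of the 5 Igf1 probes and the 2 Igfbp2 probes in each mouse, as multiples of the median retained spot of that mouse, on linear axes from 0. Circles are Cy3 and triangles Cy5 samples, and the bar is the mean ± SD of 4 mice. Both Igfbp2 probes separate MRL/lpr from MRL/+, while the ranges of MRL/lpr and MRL/+ overlap at each Igf1 probe.

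Igfbp6, a binding protein known for its preference for IGF2, read 10.6, 10.3, 12.6 and 18.6 in MRL/lpr, against 3.34, 4.36, 5.92 and 6.21 in MRL/+. The lowest MRL/lpr mouse was above the highest MRL/+ mouse. The means of 13.0 ± 3.85 and 4.96 ± 1.35 gave a log2 fold change of 1.39 with an SE of 0.32 (adjusted p = 0.0144, exact permutation p = 0.0286, the smallest that the 70 divisions of 8 mice allow). The difference was of like size in both dyes, 1.37 in Cy3 and 1.41 in Cy5. Fn14ko mice read 5.93, 4.46, 10.1 and 7.40, all below every MRL/lpr mouse, and overlapped MRL/+ with replicates 1 and 2. Neither Fn14ko against MRL/+ (0.47, SE 0.32, adjusted p = 0.353) nor MRL/lpr against Fn14ko (0.92, SE 0.32, adjusted p = 0.135) passed.

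On leaving out the MRL/+ Cy5 mice, Igfbp6 differed by 1.55 between MRL/lpr and MRL/+ on the log2 scale, with an adjusted p of 0.0539. Leaving out 1 mouse or array at a time kept it at 1.06 to 1.72, with adjusted p-values of 0.0116 to 0.0782.

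Igfbp3, the main carrier of IGFs in blood, read 0.602, 0.629, 0.707 and 0.640 in MRL/lpr. It read 1.05, 1.29, 1.27 and 2.16 in MRL/+, and 1.06, 1.16, 0.984 and 1.86 in Fn14ko. The MRL/lpr mice were close together (a coefficient of variation of 6.93%) and all below the lowest mouse of either other group. Against MRL/+ the log2 fold change was -1.11 with an SE of 0.25 (adjusted p = 0.0125, exact permutation p = 0.0286). The difference was -0.82 within Cy3 and -1.39 within Cy5. Without the MRL/+ Cy5 mice it was -0.96 with an adjusted p of 0.101.

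Against Fn14ko, Igfbp3 had a log2 fold change of -0.93 with an SE of 0.25 and an adjusted p of 0.0518, just outside the threshold. Fn14ko and MRL/+ overlapped, with a log2 fold change of -0.18 and a 95% interval of -0.71 to 0.36. A 2nd Igfbp3 probe, on a transcript listed by Ensembl alone, was not well above background in any of the 12 mice and was left out.

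Igfbp5, a binding protein that attaches to extracellular matrix, read 2.62, 3.20, 4.63 and 4.35 in MRL/lpr and 6.27, 4.37, 10.1 and 7.61 in MRL/+. The groups overlapped at MRL/lpr replicate 3 and MRL/+ replicate 2. The log2 fold change was -0.91 with an SE of 0.28, at an adjusted p of 0.0465 close to the threshold, and the exact permutation p was 0.0571. Over the 18 fits that left out 1 mouse or 1 array, the log2 fold change was -1.28 to -0.54 and the adjusted p 0.0192 to 0.263, and the call was lost in 11 of them. It was -1.07 with an adjusted p of 0.0879 without the MRL/+ Cy5 mice. The Fn14ko mice read 6.57, 5.79, 8.59 and 5.85, all above the highest MRL/lpr mouse. That difference, -0.88 with an SE of 0.28, did not pass (adjusted p = 0.103). Fn14ko and MRL/+ differed by -0.034 with a 95% interval of -0.64 to 0.57.

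Igfbp4, a binding protein that is cut by the protease PAPP-A, read 0.798, 0.678, 0.664 and 1.02 in MRL/lpr and 0.956, 0.855, 0.656 and 0.552 in MRL/+. These groups overlapped widely (log2 fold change 0.078, 95% interval -0.42 to 0.58, and -0.051 without the MRL/+ Cy5 mice). In Fn14ko the signals were 0.616, 0.622, 0.575 and 0.504. They lay below every MRL/lpr mouse, but the log2 fold change of MRL/lpr against Fn14ko, 0.43 with an SE of 0.23, did not pass (adjusted p = 0.35).

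The ligand Igf1 was read by 5 probes. Their mean was 0.373, 0.546, 0.351 and 0.569 in MRL/lpr and 0.845, 0.976, 0.636 and 0.636 in MRL/+. No MRL/lpr mouse reached the lowest MRL/+ mouse, and the log2 fold change was -0.76 with an SE of 0.24, but the adjusted p of 0.053 missed the threshold (exact permutation p = 0.0286). Without the MRL/+ Cy5 mice it was -0.93 with an adjusted p of 0.0828. Igf1 did pass under 7 alternatives, among them plain background subtraction (-0.78, adjusted p = 0.0166), the processed signal (-1.07, adjusted p = 0.0147) and the Cy3 mice alone (-1.02, adjusted p = 0.0355), where 29.7%, 17.7% and 7.84% of all genes were called, and in 5 of the 18 fits that left out 1 mouse or array. The Fn14ko mice read 0.794, 1.05, 0.542 and 0.604, which overlapped both other groups. Against Fn14ko, the MRL/lpr value was -0.69 with an SE of 0.24 (adjusted p = 0.141). Fn14ko against MRL/+ was -0.073, with a 95% interval of -0.60 to 0.45.

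Except in MRL/+ replicate 4, the Igf1 mean is mostly the signal of 1 probe, A_55_P2085979, on a transcript listed by Ensembl alone. This probe stood 12.5 to 117 times above its local background. The MRL/+ mice read 2.62, 2.67, 2.49 and 1.54 at it, the Fn14ko mice 2.72, 4.01, 2.18 and 2.21, and the MRL/lpr mice 1.22, 1.80, 1.08 and 1.93. MRL/lpr lay below Fn14ko in every mouse (log2 fold change -0.88, SE 0.31, adjusted p = 0.152) and overlapped MRL/+ through MRL/+ replicate 4 (-0.64, SE 0.31, adjusted p = 0.156). In MRL/+ replicate 4 the other 4 probes read 0.416, 0.285, 0.412 and 0.528, together more than this probe. The separation of MRL/lpr from MRL/+ at the Igf1 mean therefore rests on those dim probes. The other 4 Igf1 probes were dim, at 2.45 to 10.6 times local background, and 2 of them share 40 bases. Between MRL/lpr and MRL/+ they differed by -1.10 to -0.67 on the log2 scale, with all groups overlapping and none called. At each of these 4 probes, neither MRL/+ Cy5 mouse was well above background, and these mice read 0.29 to 0.56. The Igfbp7 probe, left out as too dim, read 0.539 and 0.452 in the same mice. Within the Cy3 mice the 4 Igf1 probes differed by -0.81 to -0.52. The part of background in these differences was not tested. In the probe fit 15% of 22419 probes were called in this comparison, 1.09% in Fn14ko against MRL/+ and 4.03% in MRL/lpr against Fn14ko.

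The ligand Igf2, an imprinted gene, read 0.569, 0.682, 0.670 and 0.636 in MRL/lpr, a narrow range. The other groups spread widely, with 0.746, 1.04, 0.482 and 1.13 in MRL/+ and 0.639, 1.37, 0.252 and 0.801 in Fn14ko. None of its 3 comparisons passed, and the 95% interval of MRL/lpr against MRL/+ ran from -1.16 to 0.48 (log2 fold change -0.34, and -0.28 without the MRL/+ Cy5 mice). The coefficient of variation was 60.6% among Fn14ko mice, 34.7% among MRL/+ mice and 7.94% among MRL/lpr mice.

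Neither receptor passed in any comparison as processed here, but Igf2r passed under other settings. Igf1r, the signalling receptor, read 2.03, 2.01, 2.41 and 2.11 in MRL/+, 2.68, 1.71, 2.53 and 2.77 in Fn14ko, and 2.89, 2.10, 2.85 and 2.71 in MRL/lpr. The groups overlapped, and MRL/lpr differed from MRL/+ by 0.30 with a 95% interval of -0.13 to 0.73. Igf2r read 1.31, 1.44, 1.60 and 1.74 in MRL/+, 1.27, 1.38, 1.32 and 1.77 in Fn14ko, and 1.13, 1.34, 1.20 and 1.31 in MRL/lpr. Between MRL/lpr and MRL/+ its log2 difference was -0.28, with a 95% interval of -0.61 to 0.043 and an adjusted p of 0.192. Without the MRL/+ Cy5 mice, these differences were 0.38 for Igf1r and -0.33 for Igf2r, and neither passed. Igf2r was called lower under 5 alternatives: plain background subtraction (-0.35, adjusted p = 0.0355), capped background (-0.35, 0.0387), loess and Aquantile scaling (-0.40, 0.0259), the 75th percentile (-0.52, 0.041) and only spots well above background (-0.53, 0.023). In these settings 17.2% to 29.8% of all genes were called. Igf2r was read by 1 probe on 10 spots, of which 8 were retained, and within a mouse these spots varied by 5.45% to 24.0% (coefficient of variation). For both receptors the 95% intervals of all 3 comparisons lay within -0.61 and 0.73. Without the filter on dim spots, Igf1r was outside these bounds, at 0.89 for MRL/lpr and 0.88 for Fn14ko against MRL/+ (adjusted p = 0.245 and 0.559).

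**Figure D3:**
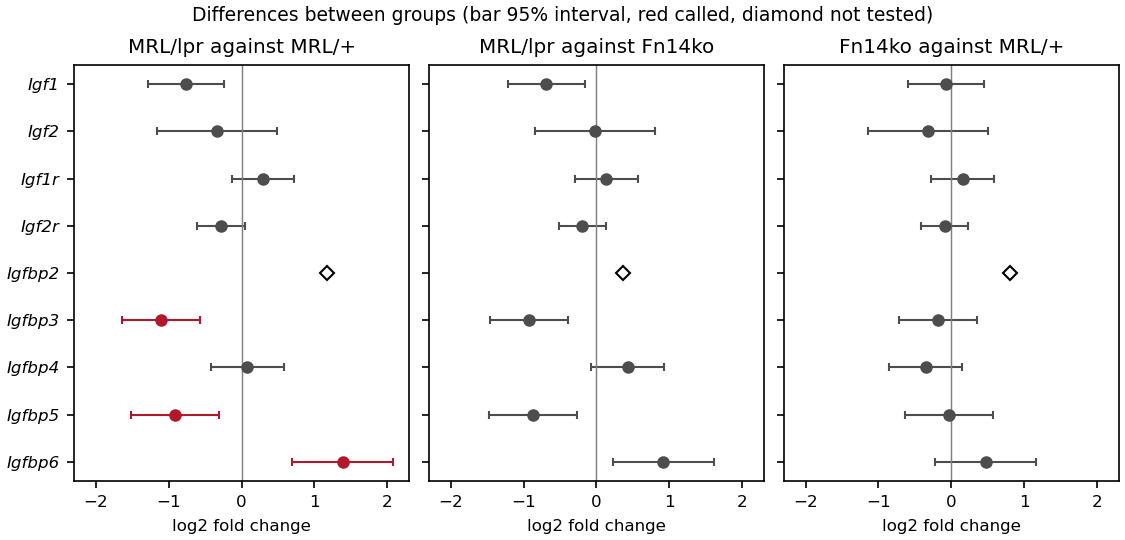
Log2 fold change of each member in the 3 comparisons (1st group minus the 2nd), with the limma 95% interval as a bar. Red points are called at an adjusted p under 0.05, grey points are not, and diamonds are Igfbp2 values that were not tested. Igfbp3, Igfbp5 and Igfbp6 are called in MRL/lpr against MRL/+, and no tested member is called in the other comparisons.

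In Fn14ko against MRL/+, none of the 8 tested members passed, beside 0.954% of all genes called (41 higher, 0.237%, and 124 lower, 0.717%, or 1118 and 950 with loess and quantile scaling of the arrays). None of the 8 had groups that did not overlap, while 13.5% of all genes did. Their log2 fold changes ran from -0.35 (Igfbp4) to 0.47 (Igfbp6), with a median of -0.081, and over all genes the median was -0.10.

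In MRL/lpr against Fn14ko, none of the 8 tested members passed at the adjusted threshold, beside 4.57% of all genes called (2.58% higher and 1.99% lower). Groups did not overlap for 4 members, of which Igfbp4 and Igfbp6 were higher and Igfbp3 and Igfbp5 lower in MRL/lpr, while 20.3% of all genes did not overlap (8.91% higher and 11.3% lower). In MRL/lpr against MRL/+ the groups did not overlap for Igfbp6, Igfbp3 and Igf1, 3 of the 8, beside 23.9% of all genes (10.8% higher and 13% lower). This count of 0 calls against Fn14ko was sensitive to processing: Igfbp3 and Igfbp5 passed with quantile scaling of loess-normalised arrays, and Igf1, Igfbp3, Igfbp5 and Igfbp6 passed with plain background subtraction. In this comparison the share of all genes called rose as well, to 12.4% and 16.5%. All comparisons that hold MRL/lpr share the same 4 MRL/lpr mice, so the values against MRL/+ and against Fn14ko are not independent of each other.

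**Figure D4:**
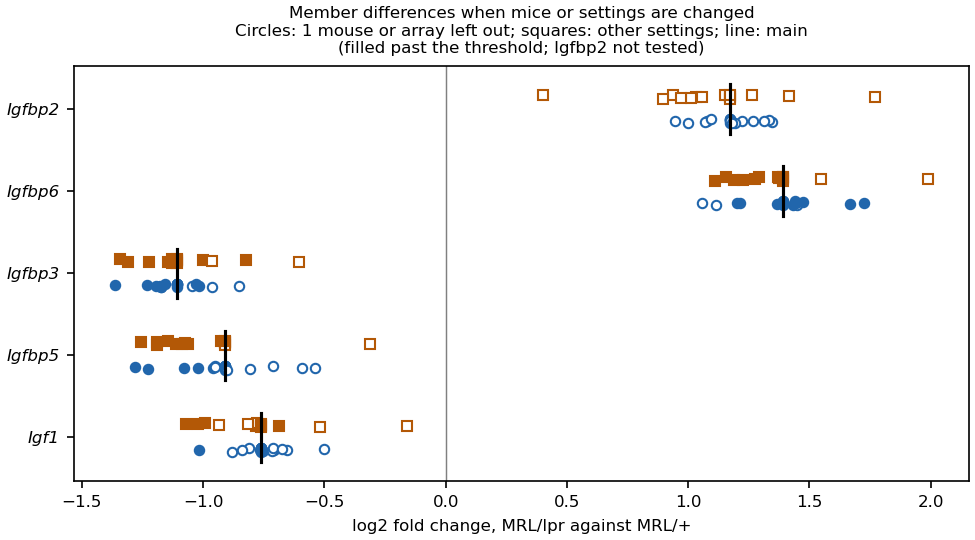
Log2 fold change in MRL/lpr against MRL/+ of 5 members when 1 mouse or array is left out (circles) or another processing choice is made (squares), with the value reported in the text as a black line. Filled marks are past the threshold, and Igfbp2 was not tested. No mark of the 5 members lies on the other side of 0. Igf1 has 13 open circles of 18 and Igfbp5 has 11.

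The wider IGF system was described by a list of 29 other genes: insulin and its receptors, receptor substrates and adaptors, proteases and inhibitors that act on binding proteins, and other IGF-related genes. Of these, 17 were measured, and 2 were lower and none higher in MRL/lpr than in MRL/+, beside 8.37% of all genes lower, a count that does not set the list apart from other genes. The same 2 genes, Ins2 and Gab1, were lower in MRL/lpr than in Fn14ko, beside 1.99% of all genes. Neither passed in Fn14ko against MRL/+. Ins2, the insulin gene next to Igf2 on chromosome 7, read 1.55 ± 0.437 in MRL/+ and 1.60 ± 0.443 in Fn14ko, but 0.558 ± 0.10 in MRL/lpr (SD, n = 4 each). The log2 fold changes were -1.44 (SE 0.20, adjusted p = 0.00112) against MRL/+ and -1.50 (SE 0.20, adjusted p = 0.00151) against Fn14ko. Gab1, a docking protein downstream of receptor tyrosine kinases, read 0.549 ± 0.0611 in MRL/lpr, with 1.08 ± 0.18 among Fn14ko mice and 1.12 ± 0.223 among MRL/+ mice. Its log2 fold changes were -1.02 (SE 0.20, adjusted p = 0.00681) and -0.97 (SE 0.20, adjusted p = 0.0144). The call of Gab1 against Fn14ko was lost in 5 of the 18 fits that left out 1 mouse or array (MRL/+ replicate 3 or 4, the 1st MRL/lpr array or either Fn14ko array), and its signal was not well above background in all 12 mice.

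Over the list, the median difference of MRL/lpr was -0.16 from MRL/+ and -0.27 from Fn14ko on the log2 scale, and that of Fn14ko from MRL/+ was -0.044, beside -0.10, -0.070 and -0.10 over all genes. Without the MRL/+ Cy5 mice, Ins2 was the list's only call against MRL/+. The unmeasured 12 genes include Igfbp1, Igfbpl1 and Pappa, which did not pass the filter on dim spots in all mice.

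The 5 genes whose log2 profile over the 12 mice, each centred on its own mean, lay nearest to that of Igfbp2 were Sod3, Arl4d, Appbp2, Mef2d and Galnt2. Their root mean square differences from Igfbp2 were 0.236 (Sod3) to 0.379 (Galnt2) in log2 units, against a median of 0.77 over all genes and a spread of Igfbp2 itself of 0.641. These 5 genes were picked as the nearest, so they lie below that median by construction. Sod3, the extracellular superoxide dismutase, had a mean signal of 1.17 in MRL/+, of 2.19 in Fn14ko and of 2.29 in MRL/lpr. The mice share arrays and dyes in all of these profiles, and the likeness is a description over 12 mice.

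Markers of some other cell types that a piece of cortex can hold moved with the groups. The summed signal of 10 endothelial markers was 15.3 to 19.4 in MRL/+, 22.2 to 31.4 in Fn14ko and 29.6 to 31.3 in MRL/lpr, with 4 of the 10 (Flt1, Slco1a4, Ly6c1 and Esam) called higher in MRL/lpr than in MRL/+ and 3 of them (Slco1a4, Ly6c1 and Esam) in Fn14ko. The list did not move as a whole: Cdh5 differed from MRL/+ by -1.16 in Fn14ko and by -0.89 in MRL/lpr on the log2 scale, and Pecam1 by -0.51 and -0.24, and none of these passed. The sum of 6 haemoglobin and red cell genes was 43.5 to 76.7 in MRL/+, 46.6 to 141 in Fn14ko and 140 to 358 in MRL/lpr, with 3 of 6 (Hbb-b2, Hba-a1 and Hbb-bt) called higher in MRL/lpr than in MRL/+ and 2 of these (Hbb-b2 and Hbb-bt) than in Fn14ko. The 12 leptomeningeal markers summed to 88.6 to 154, 53.0 to 249 and 143 to 219 in the same order of groups, with none called in any comparison. Ptgds carried most of this sum, with means of 99.0, 128.5 and 163.6. In MRL/lpr against MRL/+, the log2 fold change was -1.04 for Dcn, -0.98 for Lum and -0.066 for Col1a1, and positive for the rest. For these 3 lists every marker was measured in all 12 mice, and none was at 0.

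The 9 measured of 12 choroid plexus markers summed to 31.8 to 310 in MRL/+, 32.4 to 296 in Fn14ko and 22.1 to 156 in MRL/lpr. Ttr and Enpp2 carried most of these sums. In the same order of groups, the means were 88.9, 80.9 and 29.15 for Ttr and 22.6, 66.6 and 27.4 for Enpp2. Clic6, a chloride channel protein, was the only marker called, lower in MRL/lpr than in both other groups. F5, Kcne2 and Slc4a5 were not measured. In Fn14ko replicates 1 to 4 the choroid plexus sum was 113, 214, 32.4 and 296, and the leptomeningeal sum was 53.0, 233, 71.8 and 249. The Fn14ko mice stood in the same order of choroid plexus sum and Igfbp2 signal (5.83, 10.1, 3.47 and 10.4). In MRL/lpr replicates 1 to 4 the choroid plexus sum was 22.1, 23.7, 156 and 41.7, and in MRL/+ it was 31.8, 108, 37.0 and 310. In both groups the mouse with the highest sum also had the highest Igfbp2, but the other mice did not keep one order: the lowest Igfbp2 of MRL/+ was in replicate 2, which had the 2nd highest sum. The part of these cell types in the values of Igfbp2, Igf2 and the other members was not tested.

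The other lists had 10 markers each, all measured, except for 9 measured striatal markers. Astrocyte sums were 108 to 155 in MRL/+, 121 to 136 in Fn14ko and 122 to 227 in MRL/lpr, and Slc4a4 alone was called, lower in MRL/lpr than in MRL/+. Microglial sums were 42.1 to 52.6, 41.9 to 52.0 and 39.4 to 58.2 in the same order, and Aif1 alone was called, higher in MRL/lpr than in MRL/+. Neither sum separated the groups. Mural cell sums were 16.3 to 26.1, 22.2 to 47.4 and 26.9 to 29.4, with Pdgfrb and Vtn called higher and Cspg4 lower in MRL/lpr than in MRL/+.

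Striatal sums were 11.5 to 21.4 in MRL/+ and 21.1 to 43.8 in MRL/lpr, with no marker called. Fn14ko replicate 1 stood apart at 171, against 16.2 to 29.5 in the other Fn14ko mice. Without this mouse, no member was called in either comparison with Fn14ko, as with it, while 4 were called in MRL/lpr against MRL/+, Igf1 being added. Calls over all genes rose there as well, to 1257 higher and 2234 lower of 17302, from 1044 and 1448 with this mouse.

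The labelled tissue was checked on 10 markers of cortical excitatory neurons, all of which were measured in every mouse, with sums of 39.7 to 58.8 in MRL/+, 36.9 to 44.3 in Fn14ko and 33.4 to 37.0 in MRL/lpr. The markers did not move together. In MRL/lpr against MRL/+, Tbr1, Cux2, Rorb and Emx1 were called higher and Slc17a7, Neurod6 and Bcl11b lower. Against Fn14ko, Cux2 and Rorb were higher and Neurod6 and Bcl11b lower. Slc17a7, a vesicular glutamate transporter, had a mean signal of 25.5 in MRL/+ and 12.2 in MRL/lpr, and so carried much of the difference between the sums. Interneuron sums were 64.8 to 90.4 in MRL/+, 82.1 to 120 in Fn14ko and 85.1 to 92.3 in MRL/lpr. Of these markers Vip, Pvalb and Npy were called higher and Htr3a lower in MRL/lpr than in MRL/+, and Vip was also higher than in Fn14ko. No astrocyte, microglial, mural, striatal or neuronal marker was called in Fn14ko against MRL/+.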

How the data were processed

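The deposited files hold, per the file headers, the Agilent Feature Extraction 12.1.0.3 output of 6 two-colour arrays: for each spot and channel the mean foreground intensity and median local background intensity, not normalized by the authors, with quality marks and a processed signal. Each channel was treated as 1 mouse, grouped by the deposited labels. Control spots were removed, as were spots marked uneven or outlier in any channel (1952) and spots under 2 times background in any of the 12 samples (17781), which left 24255 spots, 17302 genes and 22419 probes. Background was corrected with normexp (offset 50) in limma 3.58.1 under R 4.3.3, each channel was divided by its median retained spot, and spots of a gene were averaged on the linear scale, so that bright probes dominate. Group differences were tested on log2 signal by limma with a dye term, array as a random block (correlation 0.316) and a variance trend, with Benjamini-Hochberg adjustment over all genes (threshold 0.05), and likewise over single probes. Exact 2-sided permutation tests used the 70 divisions of 8 mice. The fit was tested on simulated data, where clearly more of its calls were unchanged genes than the adjustment allows, so that calls near the threshold, such as that of Igfbp5, are less sure than their adjusted p. Figures were drawn with matplotlib 3.10.9.

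Named were all 10 members and their probes, genes of the IGF list past the threshold, the 5 genes nearest Igfbp2, and the cell type lists with their called members. Members and lists were chosen with earlier results of these data known. Background correction, scaling, filters, probe merging, model terms, the methods' t-test, the study's criterion and each mouse and array left out were varied. Igfbp2 was left untested in every comparison, since its MRL/lpr and MRL/+ values entered the choice of the family. Probe sequences and mm9 coordinates are those in the array files.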

Additional observations from a re-analysis of the deposited data

Results flagged for a closer look

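Igfbp2 of MRL/+ replicate 4 (a Cy5 sample) read 4.62, apart from the other 3 MRL/+ mice at 3.59 to 3.70, and the gap made up 0.881 of the group's log2 range. At the single probes, Igf1 probe A_55_P2085979 of the same mouse read 1.54, below the others of its group at 2.49 to 2.67, with a gap of 0.872 of the log2 range. These were 1 of 27 gene groups and 1 of 48 probe groups of 4 mice looked at, and chance gives about 1 in 20. This mouse had 21.2% of its spots well above background, the lowest share of the 12 samples. Without it, Igfbp2 differed by 1.18 between MRL/lpr and MRL/+ on the log2 scale, and by 1.17 with it.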

How the results depend on the processing

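The number of arrays, 1 slide for each group and the 2 MRL/+ Cy5 samples with few spots well above background limit all comparisons with MRL/+. The directions of Igfbp2, Igfbp3, Igfbp5, Igfbp6 and Igf1 in MRL/lpr against MRL/+ held under each of the alternatives run, but not their calls or sizes. Without the dim filter, the log2 fold change was -0.16 for Igf1, -0.31 for Igfbp5, -0.60 for Igfbp3, 1.99 for Igfbp6 and 1.77 for Igfbp2. Of the 8 members tested in MRL/lpr against MRL/+, 3 were called, against 5 with plain background subtraction, with capped background and with the 75th percentile, 0 without the filter on dim spots, 0 without the MRL/+ Cy5 mice, 0 by the methods' t-test after Benjamini-Hochberg adjustment, 4 with the Cy3 mice alone, and 0 to 4 on leaving out 1 mouse or array. The 0 calls in MRL/lpr against Fn14ko became 4 with background subtraction or capped background, 3 with the processed signal or with only spots well above background, 2 with loess and Aquantile, without the array block or by the unadjusted t-test, 1 with the 75th percentile, and 0 to 2 on leaving out 1 mouse or array. Instead of 8 members, 5 were tested with only spots well above background, and 9 without the dim filter, which let Igfbp7 in. In Fn14ko against MRL/+ the count of member calls stayed at 0 in every alternative, while the share of all genes called there moved both ways. From 0.954% it rose to 16.4% with background subtraction, 13.2% with capped background, 15.2% by the unadjusted t-test and 10.9% without the array block. It fell to 0.0347% without the MRL/+ Cy5 mice, and no gene was called without the dim filter. The share of all genes called also changed: in MRL/lpr against MRL/+ it was 14.4%, and 29.7% with background subtraction, 24.8% with capped background, 17.2% with the 75th percentile, 7.84% with the Cy3 mice alone, 5.03% without the MRL/+ Cy5 mice, 4.17% by the adjusted t-test and 0.0755% without the dim filter. Against Fn14ko it was 4.57%, and 16.5% with background subtraction, 14.3% with capped background, 10.9% with the processed signal, 16.1% with only spots well above background, 12.4% with loess and Aquantile, 10.3% without the array block, 22.1% by the unadjusted t-test and 5.47% with the 75th percentile.

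The IGF list's 2 calls in MRL/lpr against MRL/+ became 4 with the processed signal, the 75th percentile, only spots well above background or no array block. They became 6 with loess and Aquantile, 1 without the MRL/+ Cy5 mice, 0 without the dim filter or by the adjusted t-test, and 2 to 6 in the leave-outs. Of the list, 7 genes were tested with only spots well above background and 29 without the dim filter, instead of 17. Where the list's count rose, calls over all genes rose from 14.4% as well. They were 17.7% with the processed signal, 17.2% with the 75th percentile, 29.8% with only spots well above background and 29.3% with loess and Aquantile. With no array block, 2117 genes were higher and 3072 lower, against 1044 and 1448 as processed here. The list's 2 calls in MRL/lpr against Fn14ko became 5 with background subtraction, 4 with capped background, loess and Aquantile or the study's criterion, 6 by the unadjusted and 0 by the adjusted t-test, 1 without the dim filter, and 1 to 3 in the leave-outs. Of all genes, 7.87% were called there by the study's criterion, 1.05% by the adjusted t-test and 0.11% without the dim filter. The list's 0 calls in Fn14ko against MRL/+ became 2 with background subtraction, 1 with capped background, 3 by the unadjusted t-test, and 0 to 3 in the leave-outs. Of all genes, 16.4% were called there with background subtraction, 13.2% with capped background and 15.2% by the unadjusted t-test.

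The mice were not treated as paired by replicate number, since 4 of the 12 same-numbered pairs had a correlation of deviations of 0.081 or less. Over all 12 pairs it was -0.13 to 0.72, 7 of 12 mice were closest to their own number, and the numbers share a dye. With the replicate number as a block, 4 members were called in MRL/lpr against each other group and 0 in Fn14ko against MRL/+, and the list had 4, 4 and 0 calls. Under this block 32.3% of all genes were called in MRL/lpr against MRL/+, 9.39% against Fn14ko and 6.99% in Fn14ko against MRL/+.

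All 46 sign changes were in values not called in either fit. Without the dim filter, Fn14ko against MRL/+ turned to 0.65 for Igf1, 0.41 for Igf2, 0.64 for Igf2r, 0.41 for Igfbp3, 0.37 for Igfbp4 and 0.69 for Igfbp5, and MRL/lpr against MRL/+ to 0.26 for Igf2 and 0.32 for Igf2r. In Fn14ko against MRL/+, Igf1 turned to 0.088 with loess and Aquantile, Igf2r to 0.027 with the processed signal, and Igf1r to -0.076 with loess and Aquantile, -0.091 with the 75th percentile and -0.069 with only spots well above background. Igf2 in MRL/lpr against Fn14ko turned to 0.013 with background subtraction, 0.012 with capped background and 0.62 in Cy3 mice, and in MRL/lpr against MRL/+ to 0.042 in Cy3 mice. Igfbp4 in MRL/lpr against MRL/+ turned to -0.16 with the 75th percentile, -0.051 without the MRL/+ Cy5 mice and -0.12 in Cy3 mice. Across the leave-outs, Fn14ko against MRL/+ ran from -0.41 to 0.26 for Igf1, -0.85 to 0.21 for Igf2, -0.23 to 0.05 for Igf2r, -0.43 to 0.078 for Igfbp3 and -0.41 to 0.34 for Igfbp5. MRL/lpr against Fn14ko ran from -0.015 to 0.29 for Igf1r and -0.55 to 0.51 for Igf2, and Igfbp4 in MRL/lpr against MRL/+ from -0.22 to 0.37. The 75th percentile moved the median over all genes by -0.23 and -0.25 in the comparisons of MRL/lpr and Fn14ko with MRL/+, and loess and Aquantile by 0.11 and 0.14. The causes were not tested.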
